A study of Rattus norvegicus with 16 samples.

Results

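SRF (serum response factor) is a transcription factor whose occupancy was mapped here by chromatin immunoprecipitation and sequencing (ChIP-seq) at 9 genes for actin-binding, adhesion and filament proteins, namely Vcl, Fermt2, Flna, Cnn2, Wdr1, Capzb, Cap1, Tpm4 and Vim. Every region of the authors' SRF consensus list whose nearest annotated gene was one of the 9 was taken, which gave 10 of 848 regions, 1 for each gene and a second for Vcl. A region enters that list when a peak is called in at least 1 SRF library, and the genes were chosen by these peak calls, so the calls are described and not tested. The cells were wild-type (WT) primary rat cultures from brain, prepared as oligodendrocyte precursor cells (OPC) by immunopanning. OPC were fixed after 6 days in proliferation medium, and oligodendrocytes (OL) were plates of the same preparations fixed on day 3 in differentiation medium. The series holds 4 SRF libraries of OPC (replicates 1 to 4), 3 of OL (replicates 1, 2 and 4), 1 IgG control library of each stage and 7 input libraries, and the comparison asks how SRF occupancy differs between the stages. Strain, age and sex of the animals are not in the labels used here, and all results are from cultured cells.

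SRF binds DNA as a dimer at a short AT-rich element called the CArG box. Its MRTF cofactors are held in the cytoplasm by unpolymerised actin and enter the nucleus when actin polymerises, so that genes of the actin cytoskeleton are classical targets, while its ternary complex factor partners answer to growth factor signalling. In the oligodendrocyte lineage actin assembly drives the extension of processes, and disassembly accompanies the wrapping of axons.

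Depth and enrichment differed between libraries, and OPC 4, OL 2 and OL 4 stood apart. The OPC libraries held 9054483 to 20303444 tags and OL 1 held 12103611, whereas OL 2 and OL 4 held 2394854 and 3363937. OPC 4 stood apart by its peaks, with 714 against 232 to 432 in the other OPC libraries, and 256 of the 848 regions were called in it alone. In OL 2, 47 peaks were called with an estimated fragment length of 296 bp, against 72 to 86 bp in the other 6 SRF libraries. Tag sizes were 70 to 73 bp, so the estimates of those 6 lay near the read length, and that of OL 2 did not. Which estimates match the true fragments was not tested, and the authors' peak and summit positions rest on them. SRF peaks do not measure expression, so the identity of the cells could not be checked. Of 28 marker genes of brain cell types, 2 (Cspg4 and Snap25) had a region, each more than 10 kb from the transcription start site (TSS).

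The promoter sequences are shown first because the 5 member regions called in more than 1 library all lay in promoters. Of all 848 regions, 464 (54.7%) lay in promoters. RefSeq promoter windows (build GRCr8, 250 bases before to 50 after the start) were at hand for 7 of the 9 genes, and those of Fermt2 and Cap1 were not. The 250 upstream bases are given 5′ to 3′ on the strand of the gene for the 4 genes whose promoter region was tested between the stages. They are Cnn2 at chr7:10370313-10370562 (minus strand), Wdr1 at chr14:76470100-76470349 (plus strand), Capzb at chr5:156718671-156718920 (plus strand) and Vcl at chr15:3404801-3405050 (minus strand). Capitals mark a CArG box with at most 1 mismatch, and in Vcl the 9 bases of a box cut by the start of the window.
Cnn2: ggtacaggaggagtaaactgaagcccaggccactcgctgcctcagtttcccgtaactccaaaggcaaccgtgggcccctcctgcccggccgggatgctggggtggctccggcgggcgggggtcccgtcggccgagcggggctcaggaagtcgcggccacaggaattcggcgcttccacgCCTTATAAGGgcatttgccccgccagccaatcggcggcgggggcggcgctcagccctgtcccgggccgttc
Wdr1: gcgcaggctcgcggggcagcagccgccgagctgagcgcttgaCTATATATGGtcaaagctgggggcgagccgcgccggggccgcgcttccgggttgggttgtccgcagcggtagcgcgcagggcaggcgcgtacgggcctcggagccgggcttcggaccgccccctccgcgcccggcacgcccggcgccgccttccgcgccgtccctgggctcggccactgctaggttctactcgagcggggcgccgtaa
Capzb: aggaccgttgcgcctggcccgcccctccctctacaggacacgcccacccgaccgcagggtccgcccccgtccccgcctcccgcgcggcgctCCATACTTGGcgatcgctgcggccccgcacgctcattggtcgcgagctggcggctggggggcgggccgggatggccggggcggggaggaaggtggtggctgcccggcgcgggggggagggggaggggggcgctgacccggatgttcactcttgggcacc
Vcl: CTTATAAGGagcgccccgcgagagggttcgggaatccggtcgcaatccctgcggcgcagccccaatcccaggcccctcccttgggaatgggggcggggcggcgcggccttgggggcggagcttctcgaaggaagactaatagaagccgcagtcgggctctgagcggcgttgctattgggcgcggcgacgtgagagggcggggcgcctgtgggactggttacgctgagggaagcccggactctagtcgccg

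The 4 windows differed in how close they came to the box. Cnn2 held a full CArG box, CCTTATAAGG, 71 to 62 bases upstream of its RefSeq start. It was the only 1 of the 7 member windows with an exact match. The share was 1.64% of all 33469 promoter windows and 4.55% of the 352 windows of genes with an SRF region in the promoter. The 7 and the 352 are unlike sets, because Flna, Tpm4 and Vim have their region in an intron. The 33469 windows were not limited to protein-coding genes, whereas the 7 members all encode proteins. Capzb held CCATACTTGG, with 1 mismatch among the central 6 bases, 159 to 150 bases upstream. Such a match or a full box was found in 2 of the 7 member windows, 9.42% of all windows and 13.1% of those with an SRF region. In Wdr1 the sequence CTATATATGG, with a mismatch in the outer bases, stood 208 to 199 bases upstream. Allowing 1 mismatch at any position, a search added after the windows had been seen, gave 4 of 7 member windows (Cnn2, Capzb, Wdr1 and Flna), 21.3% of all and 20.2% of those with an SRF region. The window of Vcl opens with CTTATAAGG, and the base before it lies outside the window. Whichever base that is, the box would have at most 1 mismatch, but whether it is a full box could not be read, and the counts above, which need all 10 bases, leave it out. A match is a string of letters and not a measured binding site.

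Other short motifs were read on both strands of the same windows. The GC box GGGCGG was in 7 of 7 member windows, in 33.1% of all windows and in 57.7% of those with an SRF region. Here too the 7 include Flna, Tpm4 and Vim, whose region lies in an intron, and the set of all windows was not limited to protein-coding genes. The 250 upstream bases of the 7 members were 59.2 to 79.2% G or C, against a median of 51.2% over all windows and 57.8% over those with an SRF region, and base composition alone changes how often such words occur. The ETS-type word CCGGAAG was found in Wdr1 only (8.75% of all windows), and GGAATG, a word bound by TEAD factors, in Vcl and Flna (14.2% of all windows). No 2 of these motifs overlapped in Cnn2, Wdr1 or Capzb, while in Vcl a pair of GGGCGG matches shared 1 base.

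The 10 regions comprised 6 promoters, 3 introns and 1 stretch of intergenic DNA, and the 6 are near the 54.7% of all regions that lay in promoters. A peak in 2 or more of the 7 SRF libraries was found at 5 of the 10, against 56.1% of all 848 regions. A peak of an IgG library overlapped 0 of the 10. The OPC and OL IgG libraries called only 23 and 20 of the 848, so this count says little about the members. By library, OPC 1 to 4 called 4, 1, 1 and 7 of the 10, against 49.8, 26.3, 43.4 and 83.8% of all regions. OL 1, OL 2 and OL 4 called 6, 0 and 1, against 49.8, 5.54 and 19.5% of all. The remaining 5 regions were called in 1 library. OPC 4 alone called 4 of these (Flna, Tpm4, Vim and the distal Vcl region) and OL 1 alone called the fifth (Cap1). The fold enrichment over the local input background, the authors' MACS value, was 4.00 to 11.5 over the 20 peaks, and 2 of the 20, Wdr1 and Flna in OPC 4, lay above the median of their own library's peaks. Fold and rank are used within a library only.

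**Figure D1:**
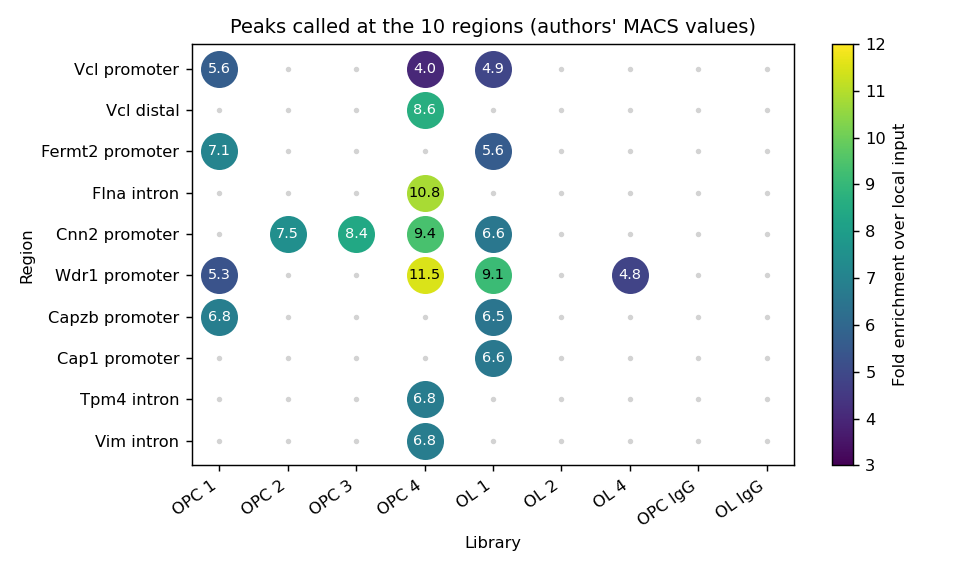
Peaks called at each of the 10 regions (rows) in the 7 SRF and 2 IgG libraries (columns); a coloured disc is a peak with its fold enrichment over local input, a small grey dot means no peak. Peaks concentrate in OPC 1, OPC 4 and OL 1, and the 3 intron regions and the distal Vcl region have a peak in OPC 4 alone.

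Adhesion genes come first. Vcl (ENSRNOG00000010765) encodes vinculin, which couples talin at adhesions to actin filaments. Its promoter region (chr15:3544855-3545036; region coordinates are in build Rnor_6.0) had its centre 243 bp upstream of the TSS and a peak in OPC 1, OPC 4 and OL 1, with fold enrichments of 5.64, 4.00 and 4.88. The region held 23, 13, 11 and 18 reads in OPC 1 to 4 and 17, 1 and 3 in OL 1, 2 and 4. Scaled between libraries this is a normalised read count of 12.4 ± 3.73 (SD, n = 4) for OPC and 10.0 ± 3.79 (SD, n = 3) for OL, and the stages overlap. OPC 1 was the highest library and OL 2, with its single read, the lowest. Normalised read counts divide reads by a library size estimated over the regions by the TMM method, which makes them levels relative to the rest of the list. The 3 summits lay within 37 bp of each other, 236 to 272 bp upstream of the TSS.

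The second Vcl region (chr15:3589009-3589093) lay between genes, 44349 bp upstream of the TSS, and was assigned to Vcl as the nearest gene only. It was called in OPC 4 at a fold enrichment of 8.63, against 4.00 at the promoter in the same library. Reads were 8, 9, 8 and 11 in OPC 1 to 4 and 6, 0 and 2 in OL 1, 2 and 4. The 0 of OL 2 allows up to 1.25 RPM (reads per 1000000 tags of the library) at 3 reads, which is above the 1.22 RPM of OPC 4, so a lower level was not detectable in OL 2 at this depth.

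Fermt2 (ENSRNOG00000009102) encodes kindlin-2, which activates integrins together with talin. Its promoter region (chr15:19876593-19876688, centre 232 bp before the TSS) was called in OPC 1 and OL 1, the 2 libraries numbered 1. Fold enrichments were 7.06 and 5.58, and both summits fell within 6 bp. It held 10, 1, 3 and 6 reads in OPC 1 to 4 and 13, 4 and 4 in OL 1, 2 and 4. The normalised read counts were 7.74, 0.906, 2.68 and 3.37 in OPC 1 to 4 and 10.4, 24.3 and 13.8 in OL 1, 2 and 4, so that every OL library lay above every OPC library. The values of OL 2 and OL 4 rest on 4 reads each.

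Flna (ENSRNOG00000054890) encodes filamin A, which crosslinks actin filaments and ties them to membrane proteins. Its region (chrX:156465644-156465843) lay in intron 1 of 45, 1790 bp downstream of the TSS. OPC 4 held 25 reads there and called the region at a fold enrichment of 10.8, whereas OPC 1 to 3 held 7, 13 and 8 and OL 1, 2 and 4 held 7, 2 and 1. This was 2.76 RPM in OPC 4 and 0.297 to 0.835 in the other libraries. OPC 4 has the highest share of tags in regions of all SRF libraries (0.379%, against 0.116 to 0.217% in the others), and after scaling by TMM the normalised read count was 14.0 in OPC 4, 5.42 to 11.8 in OPC 1 to 3, and 5.62, 12.2 and 3.45 in OL 1, 2 and 4.

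Among the proteins that bind and remodel filaments, Cnn2 and Wdr1 had the most reads and the most calls. Cnn2 (ENSRNOG00000043044) encodes calponin 2, which binds and stabilises actin filaments. Its promoter region (chr7:12782331-12782495, centre 143 bp before the TSS) was called in OPC 2, OPC 3, OPC 4 and OL 1, and its 4 summits fell within 48 bp, 113 to 161 bp upstream of the TSS. This is the gene whose window holds the full CArG box printed above, but the window is of another build and uses the RefSeq start. The strand differs too, minus for the window and plus as read from the deposited distances. The distances of box and summit were therefore not set against each other. The region held 12, 25, 16 and 24 reads in OPC 1 to 4 and 20, 7 and 3 in OL 1, 2 and 4. OL values were spread more widely than the OPC values, from a normalised read count of 10.4 in OL 4 to 42.6 in OL 2, around means of 14.9 ± 5.59 (SD, n = 4) for OPC and 23.0 ± 17.2 (SD, n = 3) for OL.

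Wdr1 (ENSRNOG00000028498) encodes a WD-repeat protein that speeds filament disassembly together with cofilin. Its promoter region (chr14:76989677-76989886, centre 138 bp before the TSS) was called in OPC 1, OPC 4, OL 1 and OL 4, and it was the only member region with a peak in a shallow OL library. The call in OL 4, with 10 reads and a fold enrichment of 4.80, had the lowest −log10 q of the 20 peaks, 1.35, and was the nearest to the authors' q-value limit of 0.05, while the peak of OPC 4 had the highest, 15.3. The q-values come from libraries of unlike depth, so their order is not an order of occupancy. Summits were spread over 111 bp, 86 to 198 bp upstream of the TSS. Reads numbered 20, 22, 15 and 22 in OPC 1 to 4 and 29, 5 and 10 in OL 1, 2 and 4. As normalised read counts these were 15.5, 19.9, 13.4 and 12.3 in OPC and 23.3, 30.4 and 34.5 in OL, and every OL library lay above every OPC library.

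Capzb (ENSRNOG00000007330) encodes the beta subunit of the protein that caps the growing end of actin filaments. Its promoter region (chr5:157642462-157642744, centre 148 bp before the TSS) was the longest of the 10 at 283 bp and was called in OPC 1 and OL 1. The summits of these 2 peaks were 134 bp apart, at 20 and 154 bp upstream of the TSS. OPC 1 to 4 held 23, 6, 14 and 13 reads, and OL 1, 2 and 4 held 24, 1 and 4. Both libraries numbered 1 were the highest of their stage, at normalised read counts of 17.8 and 19.3. OPC 2 to 4 stood at 5.43, 12.5 and 7.29 and OL 2 and 4 at 6.08 and 13.8, so the stages overlapped, although OL was the higher in 3 of 3 same-numbered pairs.

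Cap1 (ENSRNOG00000013492) encodes cyclase-associated protein 1, which returns actin monomers to the pool that can polymerise. Its promoter region (chr5:140585983-140586083, centre 625 bp before the TSS, the farthest of the 6 promoter regions) was called in OL 1 alone, with 12 reads at the summit and a fold enrichment of 6.59. The 4 OPC libraries held 5, 4, 3 and 5 reads, and OL 1, 2 and 4 held 15, 1 and 3. Every OL library lay above every OPC library in normalised read count, with 3.24 ± 0.592 (SD, n = 4) for OPC and 9.49 ± 3.07 (SD, n = 3) for OL, although 1 read stands behind the value of OL 2. A region found through a peak in OL 1 alone was chosen for many reads in that library.

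The filament-forming and filament-coating genes had the fewest reads. Tpm4 (ENSRNOG00000015496) encodes a tropomyosin, which lies along actin filaments and controls access of other proteins to them. Its region (chr16:19398289-19398373, intron 1 of 7, 1520 bp downstream of the TSS) held 4, 9, 7 and 8 reads in OPC 1 to 4 and 3, 1 and 1 in OL 1, 2 and 4. Vim (ENSRNOG00000018087) encodes vimentin, an intermediate filament protein of OPC and other precursors. Its region (chr17:80885792-80885876, intron 2 of 8, 3168 bp downstream of the TSS) held 10 reads in OPC 4, 2 to 4 in the other OPC libraries and 1 in each OL library. Both were called in OPC 4 alone, at fold enrichments of 6.75 and 6.78, and the stages overlapped at both. Within same-numbered pairs, the normalised read count of Tpm4 was lower in OL in 3 of 3 and that of Vim in 2 of 3.

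**Figure D2:**
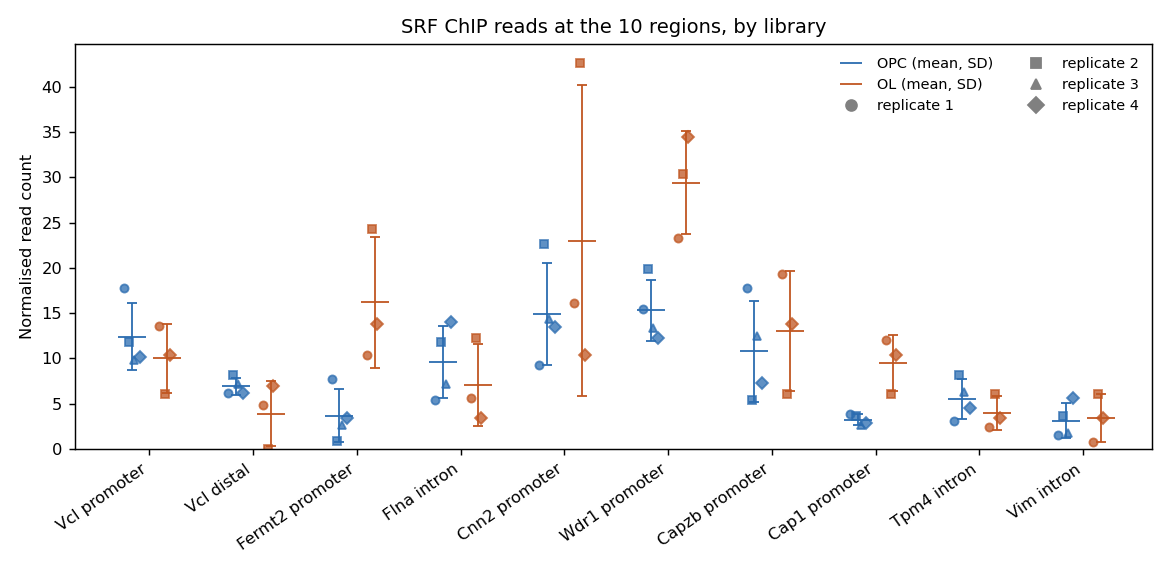
Normalised read count (y axis) at the 10 regions, 1 point per library, blue for OPC and orange for OL, with the mean as a bar and the SD as whiskers (n = 4 and n = 3). OL lies wholly above OPC at the Fermt2, Wdr1 and Cap1 promoters, and the points of OL 2 rest on 0 to 7 reads.

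In level the members lay on both sides of the median region. Per length, as RPM per kb with both stages weighted equally, they ranged from 3.97 at Vim to 10.2 at Cnn2, against a median of 7.17 over the 848 regions. Cnn2, Wdr1 (9.73) and Fermt2 (9.14) stood above that median and the other 7 regions below it. The Fermt2 region is short, 96 bp against a median of 170 bp. Its 41 reads in total ranked 656 of 848, below the median of 87 reads. Reads that overlap a region only in part are counted, which raises the level per kb of short regions. By total reads Wdr1, with 123, was the highest member and ranked 335 of 848, and Vim, with 21, ranked 832.

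**Figure D3:**
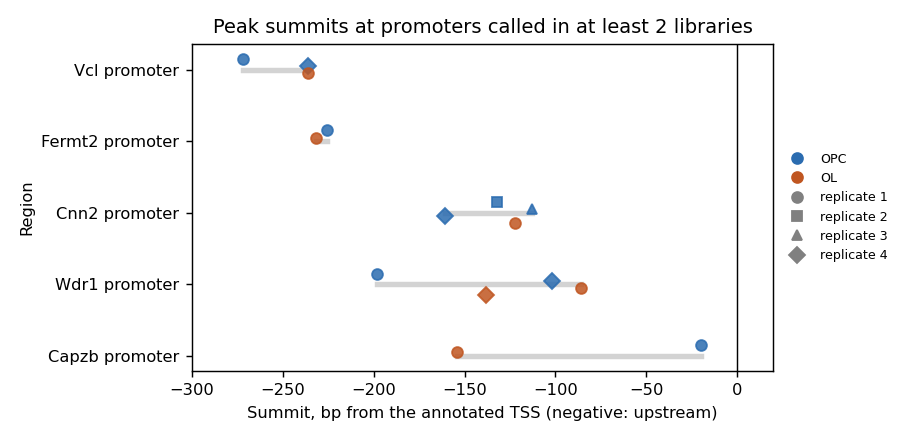
Peak summits at the 5 promoter regions called in at least 2 libraries, as distance in bp from the TSS of the deposited annotation (negative values are upstream); each point is a peak in 1 library, blue for OPC and orange for OL. Summits fall within 6 bp at Fermt2 and within 37 and 48 bp at Vcl and Cnn2, and are 111 and 134 bp apart at Wdr1 and Capzb.

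Between the stages no member region passed. Regions that held 10 reads or more in 3 or more libraries were compared with edgeR's quasi-likelihood test over the whole table, and 12 of 557 (2.15%) passed at a Benjamini-Hochberg adjusted p below 0.05. Of these 2 (0.359%) were higher and 10 (1.8%) lower in OL. DESeq2 called 42 (7.54%), with 29 (5.21%) higher and 13 (2.33%) lower, so the balance of directions turned with the tool. It also turned without OL 1, where edgeR called 28 higher and 3 lower. With edgeR and the replicate number as a block 0 passed, with 106 (19%) at an unadjusted p below 0.05. The promoter regions of Vcl, Cnn2, Wdr1 and Capzb were among the regions tested, and 0 of these 4 passed by edgeR, by DESeq2 or with the block. At an unadjusted p below 0.05 there was 1 of 4, Wdr1, in each of the 3 fits, against 21.9% of all tested regions by edgeR and 20.3% by DESeq2. The other 6 regions did not reach the read minimum. Replicates are said to be separate preparations, each divided between the stages. The fits without the block treat all libraries as independent, although same-numbered libraries of the 2 stages would share a preparation. The spread between libraries that the p-values rest on also holds differences in depth and enrichment, not preparation alone.

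Of the 4 tested members 3 had a positive log2 fold change, as did 49.4% of all 557. The median log2 fold change of the 4 was 0.47, and that of the 557 was -0.01. Wdr1 had the largest, 0.83 ± 0.28 (SE, edgeR adjusted p = 0.111), a size of 0.85 with the block (adjusted p = 0.184). Capzb followed with 0.63 ± 0.46 and Cnn2 with 0.31 ± 0.43, and Vcl stood at -0.02 ± 0.37 (edgeR adjusted p = 0.506, 0.773 and 0.991). The standard errors of Capzb, Cnn2 and Vcl leave either direction possible. Scaled to all tags, which keeps a change common to all regions, the median tested region moved to -0.35 and Wdr1, Capzb, Cnn2 and Vcl to 0.65, 0.20, 0.19 and -0.38. The first 3 then stayed above that median and Vcl lay just below it.

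**Figure D4:**
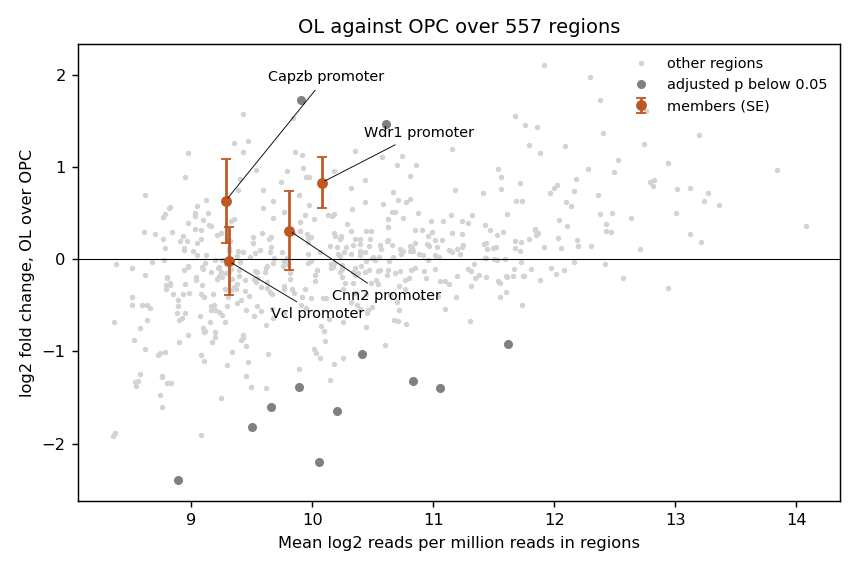
Log2 fold change of OL over OPC (y axis) against mean log2 read level (reads scaled to 1000000 reads in regions, x axis) for the 557 tested regions; orange points with SE bars are the 4 tested member regions and dark grey points the regions with an adjusted p below 0.05. The members lie in the lower part of the read range, from -0.02 at Vcl to 0.83 at Wdr1, and none is among the 12 dark points.

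Without the read minimum all 10 regions could be fitted, and again 0 of 10 passed, against 2.59% of 848. Cap1 and Fermt2 then had log2 fold changes of 1.69 ± 0.51 and 1.77 ± 0.60 (SE, edgeR adjusted p = 0.0928 and 0.106), with higher values in 3 of 3 OL libraries. The regions called in OPC 4 alone had negative values, from -0.55 at the distal Vcl region to -0.80 at Tpm4, with edgeR adjusted p from 0.504 to 0.738. At Vim the fit gave -0.74 while the mean normalised read count was 3.14 in OPC and 3.45 in OL, with 1 read in each OL library. The fit weights libraries by their reads and was scaled anew over all 848 regions, and the mean was not. Which of these accounts for the difference was not tested. Over the 10 regions the median was 0.13, with 5 positive values, against -0.08 and 44.3% positive for all 848. The value was positive at the region called in OL 1 alone and negative at the 4 called in OPC 4 alone, and these calls had chosen the regions.

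The normalised read counts of OL lay wholly above those of OPC at 3 of the 10 regions (Fermt2, Wdr1 and Cap1), against 6.72% of all 848 regions. The opposite order was seen at 0 of 10, against 13.2% of all. Within same-numbered pairs, OL was the higher in 3 of 3 at 4 regions (Fermt2, Wdr1, Capzb and Cap1), against 17.6% of all 848, and the lower in 3 of 3 at 1 (Tpm4), against 26.1%. Among the 57 regions called in OL 1 alone, as Cap1 was, 24.6% had OL wholly above OPC. Among the 256 called in OPC 4 alone 16.8% had OL wholly below OPC, as did 0 of the 4 members called there. Scaled to all tags, Fermt2 alone kept OL wholly above OPC, with 0.0493 to 0.806 RPM in OPC and 1.07 to 1.67 in OL (2.24% of all regions, and 5.19% in the opposite order). Wdr1 then spanned 1.08 to 2.43 in OPC and 2.09 to 2.97 in OL, because OPC 4 lay above OL 2 and OL 1, and Cap1 spanned 0.197 to 0.552 and 0.418 to 1.24.

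The 2 libraries numbered 1 give a comparison at like depth, with 12401853 tags in OPC 1 and 12103611 in OL 1. Per tag, OL 1 held 3.07 times the reads of OPC 1 at Cap1 (exact 95% interval 1.06 to 10.8, for counting error only), 1.71 times at Cnn2 (0.795 to 3.83), 1.49 times at Wdr1 (0.812 to 2.77) and 1.33 times at Fermt2 (0.540 to 3.39). At Capzb the ratio was 1.07 (0.578 to 1.98) and at Flna 1.02 (0.307 to 3.42). The Vcl promoter stood at 0.757 (0.380 to 1.48). These ratios compare 2 libraries and not the stages, and apart from Cap1, which was found through its peak in OL 1, each interval includes equal reads. The distal Vcl, Tpm4 and Vim regions, with 1 to 8 reads in either library, had intervals that span more than a 10-fold range.

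Over the 7 libraries the scaled log2 counts of the Wdr1 promoter, the member with the most reads, were most like those of regions near Egr3 (-2216 bp from its TSS, Pearson correlation 0.96), Zswim6 (-142351 bp from its TSS, 0.95) and Mob3a (promoter, 0.94). All regions were read in the same 7 libraries, which differ in depth, and the 90th percentile of the correlation over the 553 regions compared was 0.79.

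Of 105 further genes for actins, nucleators, cappers, crosslinkers, tropomyosins, myosins, adhesion and intermediate filament proteins, 5 (4.76%) had a region, with 7 regions in all. Over all 23154 protein-coding RefSeq symbols the share was 2.52%. They were the cytoplasmic actin genes Actb and Actg1, Coro1c (a coronin, 39354 bp downstream of the TSS), Fhl2 (a LIM-domain protein) and Myl12a (a myosin light chain). None of the 22 further genes for monomer binding and nucleation, 19 for crosslinking and membrane linking and 8 for intermediate filaments had one. The list leaves out the 9 members, which were chosen because they have a region. The 4.76% and the classes with no region therefore describe only the genes left over. At a share of 2.52%, lists this short often hold none, so whether a class lacks regions cannot be read from them. Of the 6 regions of the further genes tested between stages 1 passed, higher in OL (upstream of Actg1, log2 fold change 1.46 ± 0.30, edgeR adjusted p = 0.0364), and 0 lower, with a median of 0.60. The edgeR adjusted p at Actg1 was 0.0741 with the replicate block and 0.719 scaled to all tags, so the call was lost in both. It was also lost without OPC 1, OPC 2, OPC 4, OL 2 or OL 4, with edgeR adjusted p from 0.0611 to 0.0893, while DESeq2 kept it (adjusted p = 0.00211). Like Flna, Tpm4 and Vim, the regions of Fhl2 and Myl12a were called in OPC 4 alone. The intron region of Coro1c was called in 7 of 7 libraries, more than any member, with a normalised read count of 27.4 ± 6.25 (SD, n = 4) for OPC and 52.4 ± 28.9 (SD, n = 3) for OL (log2 fold change 0.65 ± 0.33, edgeR adjusted p = 0.283).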

How the data were processed

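SRF ChIP-seq in 7 libraries was analysed, with 2 IgG libraries for peak overlap; the 7 input libraries entered only through the authors' peak calling. Per the labels' protocols, chromatin was sheared in 7 cycles, libraries were amplified in 12 PCR cycles and sequenced as single reads of 75 bp. Trim Galore, BWA, MACS2, HOMER and deepTools and the build Rnor_6.0 are named in the submitters' processing notes; duplicate handling before peak calling is not given in the sources used here.

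Peaks were called by the authors in each library against input with MACS 2.2.7.1, per the file headers (q-value 0.05, all duplicates kept at that step). The deposited peak tables give pileup signal, fold enrichment ratio over local input and −log10 q. The deposited counts are raw reads per consensus region, which featureCounts 2.0.1 assigned where 0.2 of a read or more overlapped. Gene names and distances are from the deposited HOMER tables; gene strand was read from how distance changes with position. The library titled OL replicate 4 carries number 3 in its file name and was treated as replicate 4.

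A region counted as called when it overlapped a peak by at least 1 bp. Regions with at least 10 reads in 3 libraries entered edgeR 4.0.16 (R 4.3.3; TMM, quasi-likelihood test, Benjamini-Hochberg over all 557), checked on simulated counts; DESeq2 1.42.0 was an alternative. Intervals and floors cover counting error only. Motifs were searched in RefSeq windows (GRCr8), of another build than the files. Members and lists were chosen with earlier results of these data known. All regions of the 9 genes are named; for likeness, the 3 regions with the highest correlation to the member with the most reads.

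The labels say that each preparation was divided between the stages, so numbers 1, 2 and 4 were taken as pairs. Deviations of same-numbered libraries from their stage means correlated at 0.09, 0.27 and 0.16, against 0.28 for OPC 4 with OL 1, so the pairing rests on the labels.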

Additional observations from a re-analysis of the deposited data

How the results depend on the processing

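No member region passed under any of the 15 alternative fits, and the log2 fold changes of Wdr1 (0.61 to 1.13), Capzb (0.04 to 1.00) and Cnn2 (0.01 to 0.61) stayed positive in each; Cnn2 was lowest without OL 2 and Capzb without OL 1. Vcl changed sign, from -0.48 to 0.21 when 1 library was left out and to 0.13 without both shallow OL libraries; the cause was not tested. The median of the 4 tested members was 0.33 to 0.59 when 1 library was left out, 0.37 without both shallow libraries and 0.20 scaled to all tags. With the replicate block it was 0.43, and 0.34 when OL replicate 4 was paired by the number in its file name, a pairing added after seeing the data.

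The 12 regions passing over the whole table became 42 by DESeq2 (29 higher and 13 lower in OL), 22 without a read minimum, 19 at a minimum of 5 reads, 0 scaled to all tags and 0 with either replicate block (106 and 103 at an unadjusted p below 0.05). Leaving out 1 library gave 1 (OPC 4) to 31 (OL 1; 28 higher and 3 lower), with 3, 4, 7 and 6 without OPC 1, OPC 2, OL 2 and OL 4, and leaving out both shallow OL libraries gave 1. The block changed no member's call. The 3 regions with OL wholly above OPC became 1 when scaled to all tags; this check and the counts within same-numbered pairs were added after seeing the data. Of the 5 further actin genes with a region, 3 had one within 10 kb and 3 one called in at least 2 SRF and 0 IgG libraries. Requiring a −log10 q of 3 left 1 calling library at Vcl and 2 at Wdr1. OL 2, with 0 to 7 reads per member region, limits every OL mean.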
